A study of Homo sapiens with 12 samples.

Results

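The genes described here carry cells through mitosis: 44 genes for cyclins, mitotic kinases, the spindle checkpoint, the kinetochore, mitotic kinesins, condensin and cohesin. They were taken by symbol from the 57353 rows of the deposited count table. All 44 were found, and all 44 passed the filter on low counts, which left 14955 genes for testing. The cells were HepG2, a human hepatocellular carcinoma line recorded as wild type. They were treated for 12 h with 10 µM sorafenib, a multikinase inhibitor given in liver cancer, or with its solvent DMSO (vehicle). After cycloheximide, which holds ribosomes on mRNA, lysates were run through sucrose gradients. From each gradient RNA was sequenced in a light pool (the low-molecular-weight peak, free ribosomal subunits and single ribosomes) and in a polysome pool. There were 4 groups (vehicle light, sorafenib light, vehicle polysome, sorafenib polysome) of 3 libraries each, from 6 cultures. All groups come from 1 cell line, and no library of unfractionated RNA was analysed here.

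Entry into mitosis is driven by cyclins A and B bound to CDK1, with CKS proteins as small adaptors of the complex. The anaphase-promoting complex (APC/C) ends mitosis by marking cyclin B and securin for destruction. Condensin compacts chromosomes with topoisomerase II, and cohesin holds sister chromatids together until separase cuts it. The mRNAs of many mitotic proteins rise together before division through shared promoter elements, and the proteins of the 44 genes differ widely in size. The 44 genes were therefore set out by the size of the protein. Small proteins were encoded by 9 genes (CKS1B, CKS2, CENPW, CENPA, BIRC5, UBE2C, PTTG1, CDCA8 and CDK1). Large proteins were encoded by 16 (TOP2A, MKI67, CENPE, CENPF, BUB1, BUB1B, KIF11, KIF4A, ANLN, ESPL1, NCAPD2, NCAPG, SMC2, SMC4, SMC1A and SMC3), and the other 19 lay between. The classes rest on general knowledge of these proteins, since no table of lengths was used here, and they stand in for short and long mRNAs.

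The cell cycle homology region, a promoter element known for expression late in the cell cycle, has the core TTTGAA. RefSeq promoter sequences of GRCh38.p14, running from 250 bases before to 50 bases after the start, were matched to 38 of the 44 genes. AURKA, BIRC5, RAD21, TPX2, TTK and UBE2C were not matched. The core, read on either strand, was present in 27 of the 38 promoters (71.1%), against 18.2% of the promoters of all 27305 genes matched. Among 91 other mitosis genes, set out further below, it was present in 34 of the 77 promoters matched (44.2%). Within the 44 genes it was found in 5 of 7 small-protein genes, 9 of 15 of middle size and 13 of 16 large-protein genes. Stretches of 30 bases around the core are printed for 4 small-protein and 4 large-protein genes, as examples of the element in either class. On polysomes CKS1B, CKS2 and CENPA fell, while CDCA8 rose, as did the 4 large-protein genes. They read 5′ to 3′ on the gene's own strand, which is the plus strand for all 8, and capitals mark the core (TTCAAA where it lies on the opposite strand). In order they lie at chr1:154974639-154974668, chr9:89311154-89311183, chr2:26786026-26786055, chr1:37692481-37692510, chr15:40161034-40161063, chrX:70290058-70290087, chr4:17810932-17810961 and chr10:92593090-92593119. Stretches were taken only where the core begins 18 to 40 bases before the annotated start, so their place was set by that choice. Within these limits the core begins 18 (CENPA) to 35 (NCAPG) bases before the start.
CKS1B: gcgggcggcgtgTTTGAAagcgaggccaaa
CKS2: cgggctgtcggaTTCAAAtccggatcgttg
CENPA: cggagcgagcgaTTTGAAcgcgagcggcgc
CDCA8: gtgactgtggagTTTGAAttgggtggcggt
BUB1B: gggaccgttaaaTTTGAAacttggcggcta
KIF4A: ctccgggacggaTTTGAAacttggcggtta
NCAPG: tcgcgggaattaTTTGAAcgttcgagcggt
KIF11: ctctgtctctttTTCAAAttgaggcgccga

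The CCAAT box (CCAAT on either strand; neither motif contains the other) was present in 27 of the 38 promoters (71.1%) and in 39.7% of all promoters matched. It was found in 7 of 7 small-protein genes, 12 of 15 of middle size and 8 of 16 large-protein genes. A match describes the letters of the promoter and was not tested as a binding site.

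Total counts per library were 511065 to 13336689, and the 44 genes together received 1503 to 65514 counts in a library. Libraries 1 and 2 of the sorafenib light group were shallow (2060384 and 511065 counts). The 3 libraries of that group correlated at r = 0.848 to 0.957 across genes, against 0.962 to 0.993 within the other groups. When every library was thinned to a common total, sorafenib light library 2 had 25468 genes detected, against 13265 to 16652 in the others. Library 2 thus differed in more than depth, and the cause was not tested. Values are given as CPM, the counts divided by the library's total scaled with its TMM factor, so each change is relative to the other genes of a library. All 9 hepatocyte markers were detected, with a summed level of 6149 to 14496 CPM in the vehicle libraries and 21922 to 33502 CPM in the sorafenib libraries. Of 8 markers of other cell types, 3 passed the filter, and 6 (PTPRC, PECAM1, VWF, COL1A1, COL3A1 and DCN) held 13 to 49 counts over all 12 libraries. The sum of the 8 was 27.1 to 46.1 CPM under vehicle and 49.0 to 82.3 CPM under sorafenib, and the part of either marker list in the results was not tested.

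On polysomes, most of the mitotic mRNAs were higher under sorafenib, and a small set was lower. By edgeR's quasi-likelihood test at a Benjamini-Hochberg adjusted p under 0.05, 33 of the 44 rose, while 20.9% of all tested genes rose. Another 7 fell, while 28.8% of all tested genes fell, and 4 did not pass (CENPE, MKI67, SMC4 and AURKA). Without the filter on low counts 2 fell, and the calls of PTTG1, BIRC5, CENPW, UBE2C and CKS1B were lost. The median log2 change of the 44 was 1.19, beside -0.26 over all tested genes. All 7 that fell encode small proteins: CKS1B, CKS2, CENPA, BIRC5, PTTG1, CENPW and UBE2C. Of the large-protein genes 13 of 16 rose and 0 fell (median 1.51), and of the middle class 18 of 19 rose and 0 fell (median 1.48). The 9 small-protein genes had a median of -1.22, and the exceptions among them, CDK1 and CDCA8, are the largest proteins of that class. The sign of that median depends on where the limit is set: when the 44 were split once into 15 smaller and 29 larger, the smaller side had a median of 0.38. Whether small-protein and large-protein genes outside mitosis differ in the same way was not tested. Without both shallow libraries of the light group, 37 rose and 6 fell. Whether fewer cells held an mRNA or each cell held less of it cannot be told apart in these pools.

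**Figure D1:**
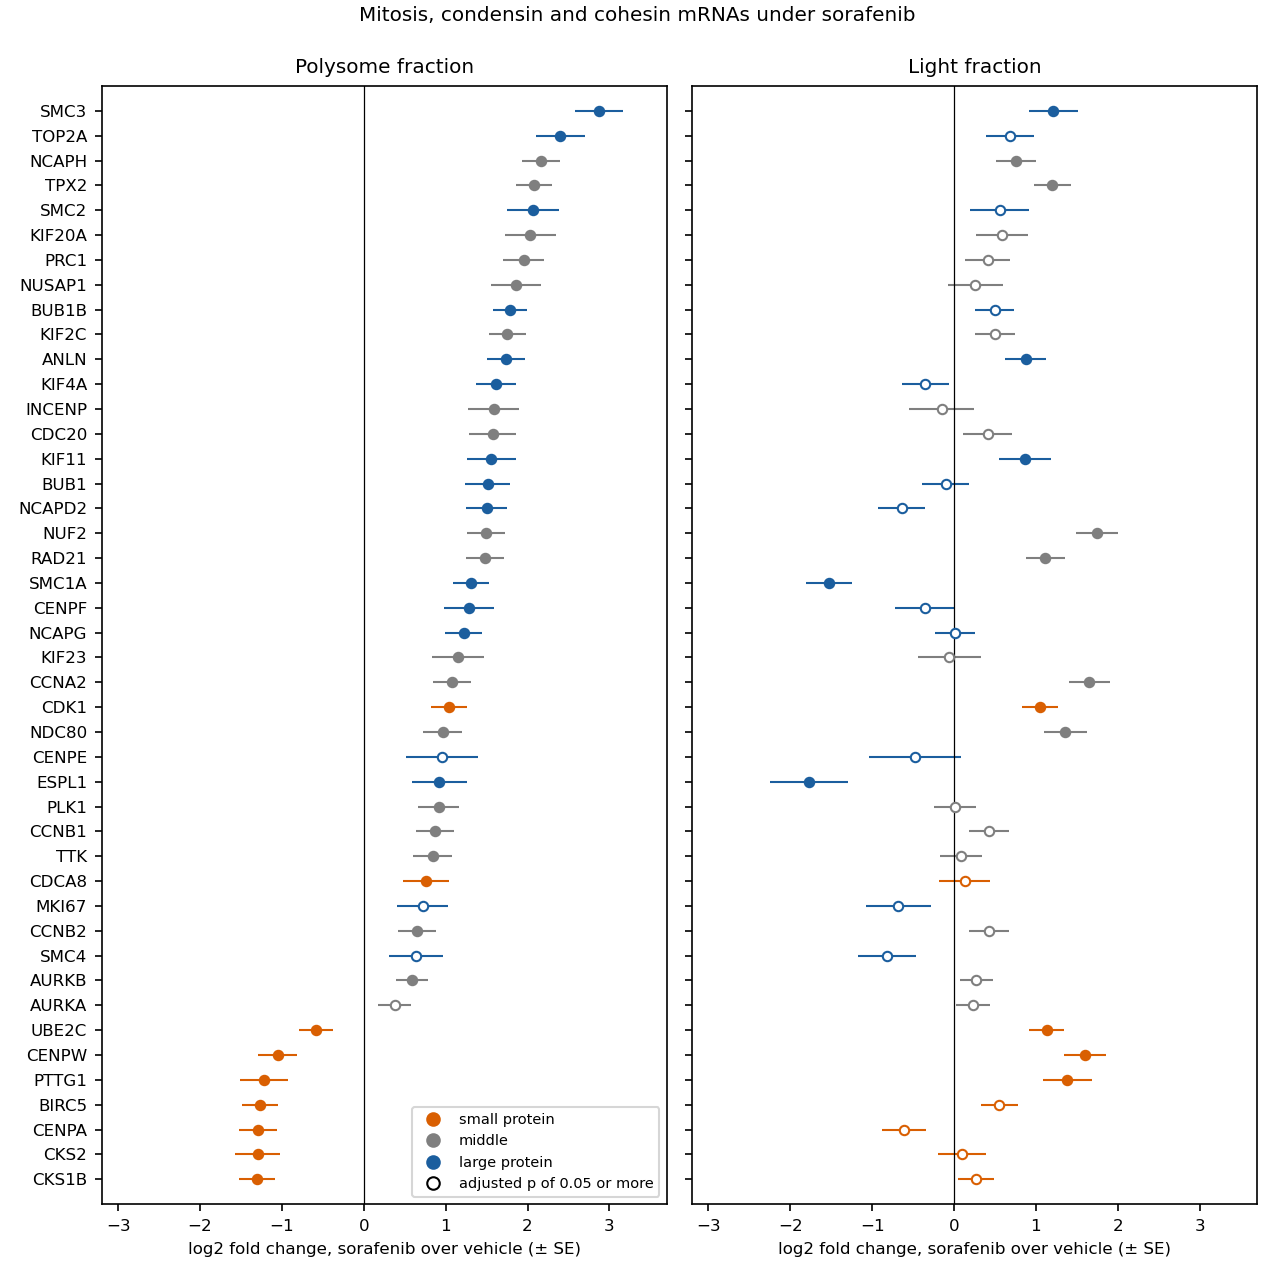
Log2 fold change of each of the 44 genes, sorafenib over vehicle, in the polysome fraction (left) and the light fraction (right), with bars of ± SE and 3 libraries per group. Colour gives the size of the encoded protein and open points have an adjusted p of 0.05 or more. The 7 points left of 0 in the polysome panel are all small-protein genes, and 3 of them lie at 1.13 or more in the light panel.

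Fewer of the 44 passed the test in the light fraction, which held the shallow libraries, and there the falls were not among the small-protein genes. In that fraction 13 of 44 rose (11.7% of all tested genes), 2 fell (17.7% of all tested genes) and 29 did not pass. The median change was 0.41, beside -0.12 over all tested genes. Among the small-protein genes 4 rose and 0 fell (median 0.55), in the middle class 6 rose and 0 fell (0.43), and among the large 3 rose and 2 fell (-0.23). The sign of the median for the large class was not stable, since it was 0.21 when libraries were scaled by their totals alone and 0.056 without both shallow libraries. In 13 of the 29 genes that did not pass, the sign of the change also turned in at least 1 alternative setting.

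The difference between the fractions was tested directly as the treatment-by-fraction interaction, the polysome change minus the light change. It passed as positive in 20 genes (12.8% of all tested genes) and as negative in 6 (10.7%). The count of negative genes was close to its share over all tested genes. All 6 negative genes encode small proteins (CENPW, PTTG1, BIRC5, UBE2C, CKS1B and CKS2), and CENPA, CDK1 and CDCA8 did not pass. Without the filter on low counts the calls of BIRC5, UBE2C, CKS1B and CKS2 were lost. In the large class 12 of 16 were positive and 0 negative, and in the middle class 8 of 19 and 0. The medians were -1.57, 0.88 and 1.56 from small to large, beside 0.02 over all tested genes. When every library was thinned to the smallest total, 41 of the 44 remained testable and 7 were positive and 5 negative. The polysome and light changes both enter the interaction, so they are not independent of it.

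The same pattern can be read as where each mRNA sat within a treatment. In vehicle cells, 7 genes were higher on polysomes than in the light pool (18.3% of all tested genes) and 9 were lower (17.8%). Both counts were close to these shares, so by number alone the genes did not stand out from all tested genes. The 7 were all small-protein genes, with CENPW 7.52 times, PTTG1 3.31 times and BIRC5 2.90 times higher on polysomes. Whether small-protein genes outside mitosis lay on the same side was not tested. Among the 9 lower genes, KIF20A (log2 -2.11 ± 0.32), NCAPH (-1.41 ± 0.24) and TTK (-1.37 ± 0.24) lay farthest to the light side. In sorafenib cells the order was turned: 12 genes were higher on polysomes (13.4% of all tested genes), and none of them encodes a small protein. PTTG1 (-0.88 ± 0.30) and UBE2C (-0.63 ± 0.21) were lower there (12.4% of all tested genes), with edgeR adjusted p = 0.0366 and 0.0371. The UBE2C call was lost when any of the 12 libraries was left out, and the PTTG1 call without any of 9 (all but the vehicle polysome libraries). Both calls were also lost with totals alone and without both shallow libraries. These levels between fractions depend on scaling, because with totals alone 17 genes were higher and 1 lower in vehicle cells, and 28 higher and 0 lower in sorafenib cells.

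**Figure D2:**
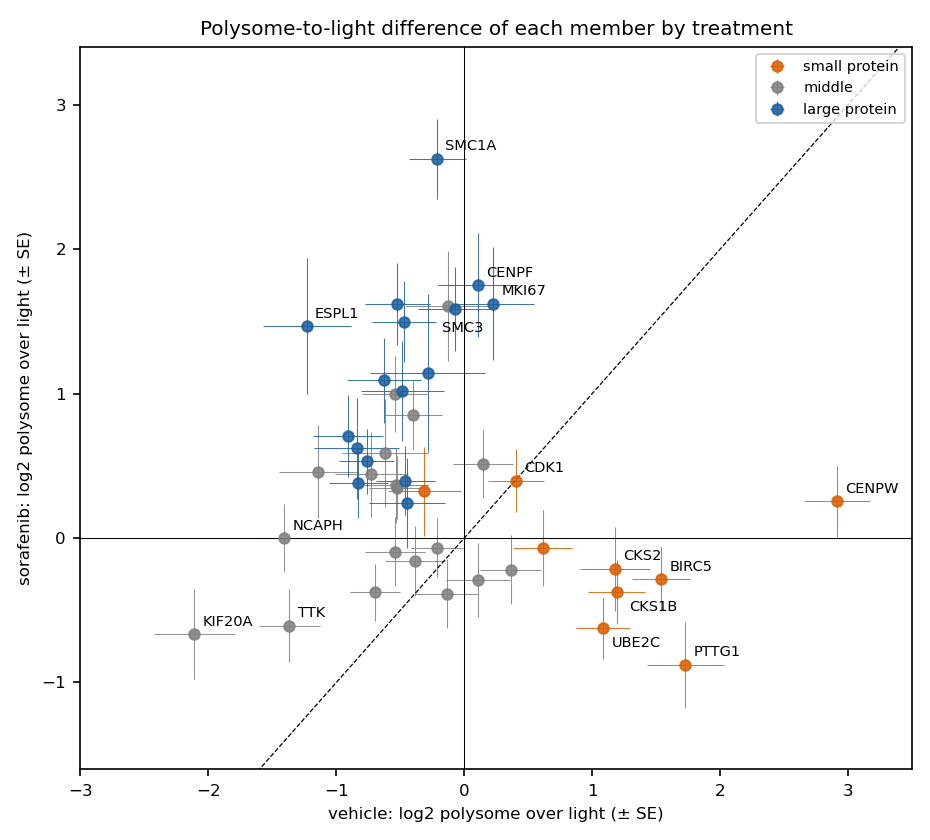
Log2 ratio of polysome to light fraction in vehicle cells (horizontal axis) and in sorafenib cells (vertical axis) for the 44 genes, with bars of ± SE; the dashed line marks equal ratios. The 6 small-protein genes with a negative interaction lie below the line at 1.09 to 2.91 on the vehicle axis, and the 20 genes with a positive interaction lie above it. The vertical distance from the line is the interaction itself, so the side of the line follows from how these genes were picked.

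A measure that needs no scaling between libraries is the number of reads on the 9 small-protein genes per read on the 16 large-protein genes within a library. On vehicle polysomes it was 3.75, 6.98 and 7.07 in libraries 1 to 3, and on sorafenib polysomes 0.963, 0.760 and 0.860. In the light pool it was 1.51, 1.20 and 1.51 under vehicle and 2.76, 1.85 and 1.82 under sorafenib. The polysome groups were far apart (means 5.93 ± 1.89 and 0.861 ± 0.102, SD, n = 3), while library 1 of vehicle polysomes lay below the other two of its group. In the light pool the sorafenib libraries were all above the vehicle ones (2.14 ± 0.536 against 1.41 ± 0.177). The ratio depends on the lengths of the genes as well, so only its difference between groups is read here. Well-counted genes weigh most in it. In sorafenib polysome library 2, TOP2A gave 10406 of the 25921 large-protein reads. In vehicle polysome library 3, BIRC5 and PTTG1 gave 6403 and 5585 of the 23854 small-protein reads.

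**Figure D3:**
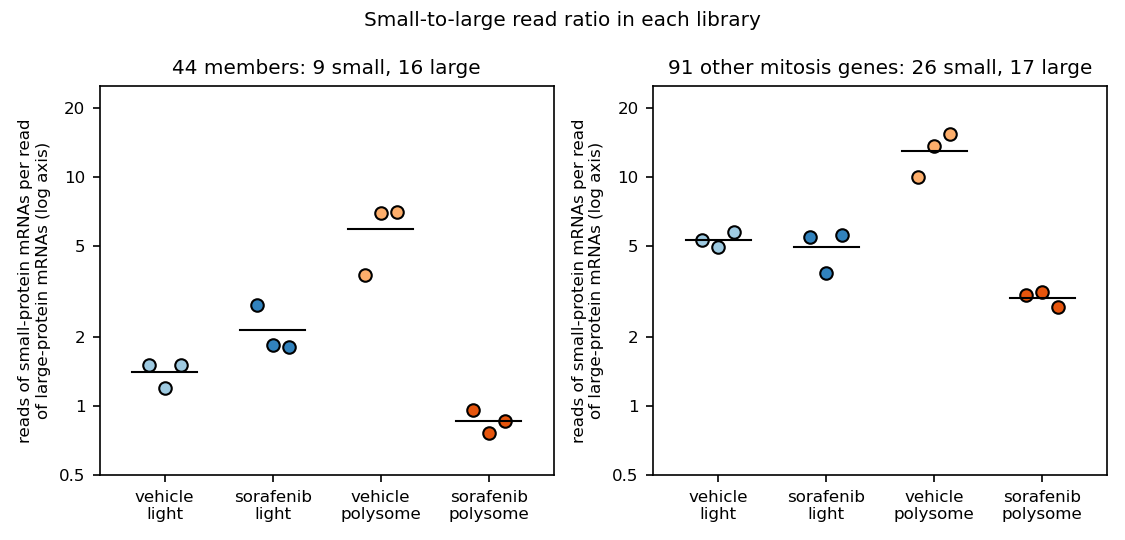
Reads on small-protein genes per read on large-protein genes in each of the 12 libraries, on a log axis, for the 44 genes (left) and for 91 other mitosis genes (right); lines mark group means. Sorafenib polysome libraries are the lowest of each panel, at 0.760 to 0.963 and 2.70 to 3.15, and vehicle polysome libraries the highest, at 3.75 to 7.07 and 10.0 to 15.4.

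Among the cyclin and CDK genes, the kinase and its cyclins rose on polysomes and the adaptors fell. CKS1B, an adaptor that guides CDK complexes to phosphorylated substrates, was at 405, 349 and 323 CPM on vehicle polysomes and 128, 172 and 137 CPM on sorafenib polysomes. In the light pool it was at 149, 148 and 174 CPM under vehicle and 218, 170.2 and 177 CPM under sorafenib. The polysome groups did not overlap and the light groups did. CKS1B fell 2.47-fold on polysomes (log2 -1.30 ± 0.22, edgeR adjusted p = 0.000118), and its light change of 0.27 did not pass. CKS2, its close relative, was at 103, 64.7 and 69.9 CPM on vehicle polysomes and 24.8, 39.8 and 32.1 CPM on sorafenib polysomes. The light values of CKS2 were 31.8, 48.6 and 24.1 CPM and 35.2, 28.1 and 44.4 CPM, with groups that overlapped. Its fall on polysomes was 2.46-fold (log2 -1.30 ± 0.27), and its light change was 0.09. The CKS2 interaction (-1.39) was lost after thinning, without the filter and without any of 5 single libraries (sorafenib light 1 and 3, sorafenib polysome 1, vehicle light 1 and 3).

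On polysomes CDK1 itself moved as the cyclins did and not as its adaptors. It stood at 100.0, 69.3 and 88.9 CPM on vehicle polysomes and 151, 209 and 172 CPM on sorafenib polysomes, and at 75.1, 58.4 and 61.6 CPM and 136, 144 and 125 CPM in the corresponding light pools. Sorafenib libraries were higher in both fractions without overlap, and the changes were alike in size (1.04 on polysomes, 1.05 in the light pool, difference -0.01 ± 0.31), though the light call was lost without the filter. Reads on CKS1B per read on CDK1 were 4.05, 5.03 and 3.64 on vehicle polysomes and 0.851, 0.820 and 0.796 on sorafenib polysomes. CCNA2, which encodes cyclin A2, rose in both fractions, from 36.1, 25.3 and 37.9 to 61.0, 79.5 and 69.4 CPM on polysomes and from 27.4, 31.2 and 18.7 to 70.5, 84.2 and 89.7 CPM in the light pool. Its log2 changes were 1.07 and 1.65, and their difference of -0.58 ± 0.33 did not pass. The B-type cyclins CCNB1 (0.87 ± 0.23) and CCNB2 (0.65 ± 0.23) rose on polysomes, while both changes in the light pool were 0.43 and did not pass. The CCNB2 call was lost after thinning and when any polysome library but sorafenib library 1 was left out. CCNB2 was at 27.4, 26.9 and 25.9 CPM on vehicle polysomes and 32.7, 52.8 and 40.5 CPM on sorafenib polysomes, and at 30.9, 43.9 and 29.9 CPM and 47.6, 35.5 and 53.5 CPM in the light pools. Its polysome groups were close but apart, and its light groups overlapped.

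Among the 4 genes of the APC/C axis 2 had a positive and 2 a negative interaction (12.8% and 10.7% of all tested genes). PTTG1 encodes securin, the inhibitor that keeps separase inactive until anaphase. It was at 98.8, 102 and 178 CPM in vehicle light libraries and 356, 395 and 245 CPM in sorafenib light libraries. On polysomes it was at 257, 526 and 472 CPM under vehicle and 174, 194 and 171 CPM under sorafenib. Sorafenib libraries were thus all higher in the light pool and all lower on polysomes, where vehicle library 1 lay nearest to them. PTTG1 rose 2.61-fold in the light pool (log2 1.39 ± 0.30) and fell 2.33-fold on polysomes (-1.22 ± 0.30), with an interaction of -2.60 ± 0.42 (edgeR adjusted p = 0.000284). The near-identical copies PTTG2 and PTTG3P held 5 counts in all, beside 24187 for PTTG1.

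UBE2C, the E2 enzyme that starts ubiquitin chains for the APC/C, behaved in the same way at smaller size. Its light values were 65.1, 67.7 and 61.8 CPM under vehicle and 163, 140.3 and 124 CPM under sorafenib, and its polysome values 119.5, 165 and 129 CPM and 89.6, 104 and 83.4 CPM. The groups were apart in both fractions, in opposite directions. The light rise (1.13 ± 0.22) kept its call in every setting run, but the polysome fall (-0.58 ± 0.21, edgeR adjusted p = 0.027) did not. It was lost without any of 9 single libraries, and was -0.32 with an adjusted p = 0.169 without both shallow libraries.

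ESPL1 encodes separase, the protease that cuts cohesin, and moved the other way from its inhibitor securin. It had 3, 2 and 7 counts in the sorafenib light libraries and 40, 43 and 40 counts in the vehicle light libraries, or 1.76, 3.74 and 1.63 CPM and 6.36, 5.24 and 8.30 CPM. On polysomes it was at 3.54, 2.13 and 2.54 CPM under vehicle and 4.07, 5.62 and 6.21 CPM under sorafenib. ESPL1 fell in the light pool (-1.77 ± 0.48) and rose on polysomes (0.92 ± 0.33), with an interaction of 2.70 ± 0.58. The light fall was not called without sorafenib light library 1 or without library 3, and the polysome rise not without 4 of the 6 polysome libraries in turn. Reads on PTTG1 per read on ESPL1 were 27.6 to 42.8 on sorafenib polysomes and 72.5 to 247 on vehicle polysomes, whereas in the light pool they were 106 to 202 under sorafenib and 15.5 to 21.5 under vehicle. CDC20, the activator that brings substrates to the APC/C, rose on polysomes from 18.3 to 34.7 CPM to 58.2 to 86.3 CPM (1.58 ± 0.29) and did not pass in the light pool (0.41). Its interaction (1.17) was lost after thinning, with totals alone and without both shallow libraries. It was also lost without any of 6 single libraries (sorafenib light 1, sorafenib polysome 1 and 3, vehicle light 2, vehicle polysome 1 and 2).

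In the chromosomal passenger complex, which corrects kinetochore attachments, the small subunit BIRC5 (survivin) separated from its partners. It was at 498, 600.3 and 541 CPM on vehicle polysomes and 228, 253 and 199.9 CPM on sorafenib polysomes. Light libraries stood at 183, 186 and 195 CPM and 321, 249 and 258 CPM. The groups were apart in both fractions, but only the polysome fall passed (-1.27 ± 0.22, edgeR adjusted p = 0.000147; light 0.55, adjusted p = 0.0665). INCENP, the scaffold of the complex, rose on polysomes from 4.56 to 10.6 CPM to 22.8 to 26.2 CPM (1.59 ± 0.31, a call lost after thinning). Reads on BIRC5 per read on INCENP were 46.9, 67.8 and 119 on vehicle polysomes and 9.90, 9.64 and 8.77 on sorafenib polysomes. The kinase AURKB was at 43.97, 45.2 and 44.4 CPM on vehicle polysomes and 60.8, 77.8 and 62.5 CPM on sorafenib polysomes, with 76.7, 69.6 and 70.1 CPM and 97.5, 78.6 and 83.6 CPM in the light pools. It rose on polysomes (0.59 ± 0.19), and its light change of 0.27 did not pass although the groups were apart. The AURKB polysome call, like that of CCNB2, was lost after thinning and without any polysome library but sorafenib library 1.

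CDCA8 (borealin), the remaining subunit, was at 10.5, 9.39 and 12.4 CPM on vehicle polysomes and 17.1, 16.8 and 21.2 CPM on sorafenib polysomes. Its light values were 14.5, 14.6 and 11.0 CPM and 9.98, 5.61 and 21.5 CPM, with a spread in the sorafenib group that covered the vehicle group; library 2 there had 3 counts. Its polysome rise (0.76 ± 0.28, edgeR adjusted p = 0.0289) is among the least secure here, with -0.16 and an adjusted p = 0.834 after thinning to the smallest total.

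**Figure D4:**
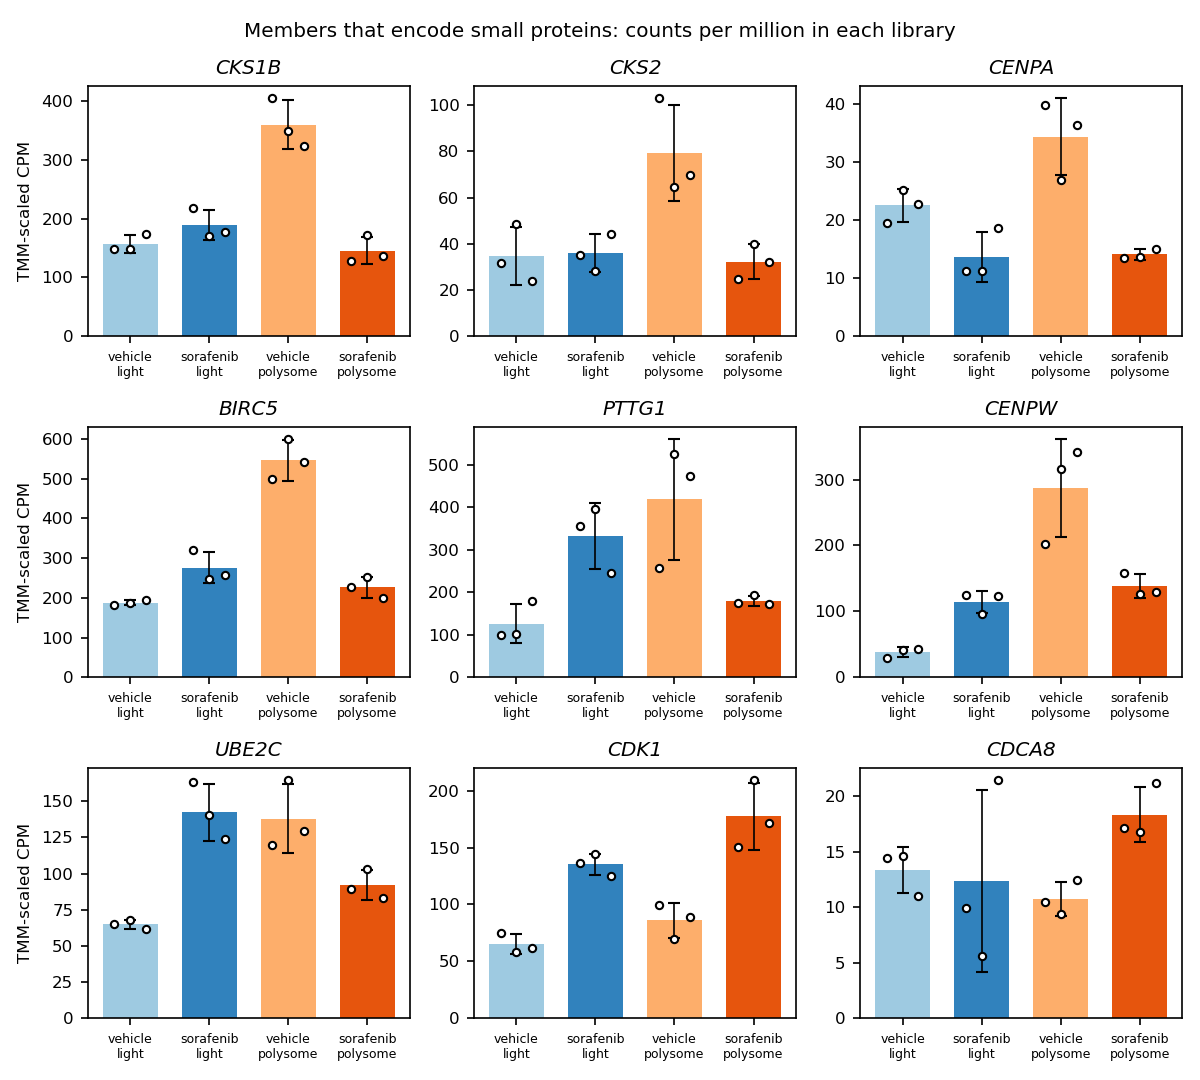
TMM-scaled CPM of the 9 small-protein genes in the 12 libraries; bars are group means, whiskers ± SD (n = 3) and points single libraries, each panel with its own axis from 0. In CKS1B, CKS2, CENPA, BIRC5, PTTG1, CENPW and UBE2C every sorafenib polysome library lies below every vehicle polysome library, and in CDK1 and CDCA8 above.

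At the centromere and kinetochore the histone variant CENPA and the small histone-fold protein CENPW fell on polysomes. CENPA, which marks the centromere, was at 39.7, 26.9 and 36.4 CPM on vehicle polysomes and 13.4, 13.7 and 15.1 CPM on sorafenib polysomes. Light values were 19.6, 25.2 and 22.8 CPM and 11.2, 11.2 and 18.7 CPM. The sorafenib libraries were lower without overlap in both fractions, though only the polysome change passed (-1.29 ± 0.23 against -0.61 ± 0.27). CENPW was at 202, 316 and 342 CPM on vehicle polysomes and 159, 127 and 129 CPM on sorafenib polysomes. Its light values were 29.9, 41.6 and 43.0 CPM under vehicle and 124, 95.4 and 124 CPM under sorafenib. CENPW therefore fell on polysomes (-1.05 ± 0.24) and rose in the light pool (1.60 ± 0.25) with groups apart in each, and its interaction of -2.66 ± 0.35 was the lowest of the 44 genes.

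The larger kinetochore genes rose or did not pass. NUF2 and NDC80, 2 partners of the complex that binds microtubules, rose in both fractions. NUF2 was at 9.70, 6.73 and 6.25 CPM on vehicle polysomes and 19.5, 24.0 and 21.1 CPM on sorafenib polysomes, and at 8.11, 9.26 and 7.68 CPM and 28.8, 22.4 and 30.6 CPM in the light pools, with groups apart in both. Its changes were 1.50 ± 0.23 and 1.75 ± 0.26, the second the highest light change of the 44 genes. NDC80 changed by 0.96 on polysomes and 1.36 in the light pool. CENPF, a large protein of the outer kinetochore, rose on polysomes (1.29 ± 0.30) and was at -0.35 in the light pool. The kinesin CENPE had 5.83 to 19.1 CPM on vehicle polysomes and 14.6 to 30.9 CPM on sorafenib polysomes, and its change of 0.95 ± 0.44 did not pass.

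All 3 checkpoint genes rose on polysomes (20.9% of all tested genes), and none passed in the light pool. The kinase BUB1 went from 17.2 to 28.0 CPM on vehicle polysomes to 54.8 to 68.6 CPM on sorafenib polysomes (1.51 ± 0.27), with -0.10 in the light pool. BUB1B, the BubR1 subunit of the inhibitor of APC/C, went from 8.86 to 10.2 to 32.1 to 33.9 CPM (1.79 ± 0.21). BUB1B is uncertain, because the overlapping read-through row BUB1B-PAK6 held 1089 counts beside its own 2237. TTK, the kinase MPS1, went from 5.07 to 7.16 to 9.34 to 12.5 CPM (0.84 ± 0.23, not called without sorafenib polysome library 3). Of the mitotic kinases outside the checkpoint, PLK1 rose on polysomes (0.92 ± 0.25). AURKA was at 145, 138 and 124 CPM on vehicle polysomes and 169, 181 and 178 CPM on sorafenib polysomes, and at 149, 159 and 164 CPM and 214, 172 and 166 CPM in the light pools. Its polysome groups were apart, but the change of 0.38 ± 0.20 did not pass (edgeR adjusted p = 0.128).

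All 9 kinesins and spindle factors rose on polysomes (20.9% of all tested genes), with a median of 1.75. TPX2, which activates Aurora A on the spindle, was at 32.4, 23.9 and 31.0 CPM on vehicle polysomes and 132, 109 and 129 CPM on sorafenib polysomes. TPX2 had 39.0, 39.1 and 48.3 CPM and 86.3, 82.3 and 117 CPM in the light pools, so that the groups were apart in both fractions. TPX2 rose 4.21-fold on polysomes (log2 2.07 ± 0.22) and 2.30-fold in the light pool (1.20 ± 0.22). Its interaction (0.88) was lost after thinning, with totals alone, without both shallow libraries and without any of 7 single libraries (sorafenib light 1, all 3 of sorafenib polysomes, vehicle light 3, vehicle polysome 2 and 3). The others rose on polysomes by 2.03 (KIF20A, a cytokinesis kinesin), 1.95 (PRC1, which bundles midzone microtubules), 1.86 (NUSAP1), 1.75 (KIF2C, a microtubule depolymerase), 1.73 (ANLN, a scaffold of the contractile ring), 1.61 (KIF4A), 1.56 (KIF11, the motor that separates spindle poles) and 1.15 (KIF23). TPX2, ANLN (0.88) and KIF11 (0.86) rose in the light pool too, and the other 6 did not pass there. The light call for KIF11 was lost without any of 9 single libraries, and that for ANLN without sorafenib light library 3 or vehicle light library 1. Both calls were also lost without the filter on low counts, and that for KIF11 after thinning and without both shallow libraries.

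All 5 condensin genes had a positive interaction (12.8% of all tested genes), and 4 of 5 rose on polysomes (20.9%). After thinning to the smallest total, the interaction calls of NCAPD2, NCAPG, NCAPH and SMC2 were lost and that of SMC4 was kept. With library totals alone those of NCAPG, SMC2 and SMC4 were lost. The SMC2 call was also lost in DESeq2's test, and the SMC4 call without both shallow libraries. NCAPH, the kleisin of condensin I, was at 4.24, 4.61 and 4.73 CPM on vehicle polysomes and 20.4, 20.8 and 19.5 CPM on sorafenib polysomes. Light values of NCAPH were 11.1, 11.9 and 13.1 CPM and 15.3, 20.6 and 24.1 CPM, with groups apart in both fractions. It rose 4.47-fold on polysomes (log2 2.16 ± 0.23) and 1.68-fold in the light pool (0.75 ± 0.25). The light call was lost after thinning, without the filter and without any of 5 single libraries (sorafenib light 3, sorafenib polysome 1 and 3, vehicle light 1 and 2). NCAPD2, a HEAT-repeat subunit, was at 17.6, 28.5 and 18.2 CPM on vehicle polysomes and 57.2, 60.5 and 62.8 CPM on sorafenib polysomes. Its light values were 31.0, 31.2 and 29.3 CPM and 11.2, 24.3 and 24.1 CPM, so the sorafenib libraries were higher on polysomes and lower in the light pool. NCAPD2 rose on polysomes (1.50 ± 0.25), its light change of -0.64 ± 0.28 did not pass, and its interaction of 2.14 ± 0.38 was the highest in condensin.

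NCAPG, the other HEAT-repeat subunit, was at 20.2, 15.1 and 13.1 CPM on vehicle polysomes and 33.6, 46.0 and 33.2 CPM on sorafenib polysomes. Light values of NCAPG were 24.7, 29.7 and 31.7 CPM and 28.2, 31.8 and 28.0 CPM, with overlap and a change of 0.01. The polysome groups were apart (1.22 ± 0.23). SMC2, an ATPase arm of condensin, was at 16.3, 6.38 and 9.04 CPM on vehicle polysomes and 36.2, 58.7 and 40.5 CPM on sorafenib polysomes, and at 12.6, 17.5 and 15.1 CPM and 22.3, 37.4 and 15.6 CPM in the light pools. SMC2 rose on polysomes (2.06 ± 0.32) and overlapped in the light pool (0.56), and its interaction was lost without sorafenib or vehicle polysome library 2. Its partner SMC4 was at 75.7, 30.1 and 30.8 CPM on vehicle polysomes and 47.2, 101 and 65.4 CPM on sorafenib polysomes, and at 73.8, 103 and 68.5 CPM and 38.2, 41.1 and 56.5 CPM in the light pools. Its polysome groups overlapped, since vehicle library 1 exceeded 2 sorafenib libraries, and neither the polysome change of 0.64 ± 0.33 nor the light change of -0.82 ± 0.35 passed. The interaction for SMC4 was 1.46 ± 0.48 with edgeR adjusted p = 0.0348, and it was lost without any of 5 single libraries.

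The cohesin genes all rose on polysomes (20.9% of all tested genes) and differed in the light pool. SMC3, an ATPase arm of cohesin, was at 26.5, 12.4 and 19.9 CPM on vehicle polysomes and 138, 157 and 141 CPM on sorafenib polysomes. The light libraries held 16.1, 23.5 and 23.0 CPM under vehicle and 45.8, 26.2 and 64.0 CPM under sorafenib. The groups were apart in both fractions, and its polysome rise of 7.34-fold (log2 2.87 ± 0.29, edgeR adjusted p = 1.04e-06) was the largest of the 44 genes. The light rise was 1.21 ± 0.30, which was not called after thinning or without sorafenib light library 3. SMC1A, the other arm, was at 16.1, 20.6 and 21.1 CPM on vehicle polysomes and 43.5, 53.8 and 45.9 CPM on sorafenib polysomes. Its light values were 17.8, 27.8 and 21.0 CPM under vehicle and 8.22, 7.48 and 7.47 CPM under sorafenib, the latter from 14, 4 and 32 counts.

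SMC1A therefore rose 2.48-fold on polysomes (log2 1.31 ± 0.22) and fell 2.88-fold in the light pool (-1.53 ± 0.28), with groups apart each time. The light fall was not called after thinning. Its interaction of 2.84 ± 0.36 was the highest of the 44 genes (edgeR adjusted p = 4.91e-05), and in sorafenib cells it lay 6.17 times higher on polysomes than in the light pool. RAD21, the kleisin that separase cuts, was at 58.8, 39.7 and 44.4 CPM on vehicle polysomes and 128, 132 and 140.1 CPM on sorafenib polysomes. RAD21 in the light pools was at 43.3, 49.7 and 35.9 CPM and 98.6, 61.7 and 112 CPM. It rose in both fractions (1.48 ± 0.23 and 1.12 ± 0.24) without overlap, and the difference between them did not pass (0.36 ± 0.33).

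TOP2A, the topoisomerase that untangles chromosomes, was at 123, 69.8 and 58.9 CPM on vehicle polysomes and 350.3, 596 and 383 CPM on sorafenib polysomes. It was at 112, 152 and 126 CPM and 169, 217 and 238 CPM in the light pools, and sorafenib libraries were higher without overlap in both. The polysome rise was 5.28-fold (log2 2.40 ± 0.30), and the light change of 0.68 ± 0.29 did not pass. MKI67, which coats mitotic chromosomes and is used as a marker of dividing cells, had 12.7 to 24.0 CPM on vehicle polysomes and 25.5 to 39.5 CPM on sorafenib polysomes. Its change of 0.72 ± 0.31 missed the threshold (edgeR adjusted p = 0.0597).

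**Figure D5:**
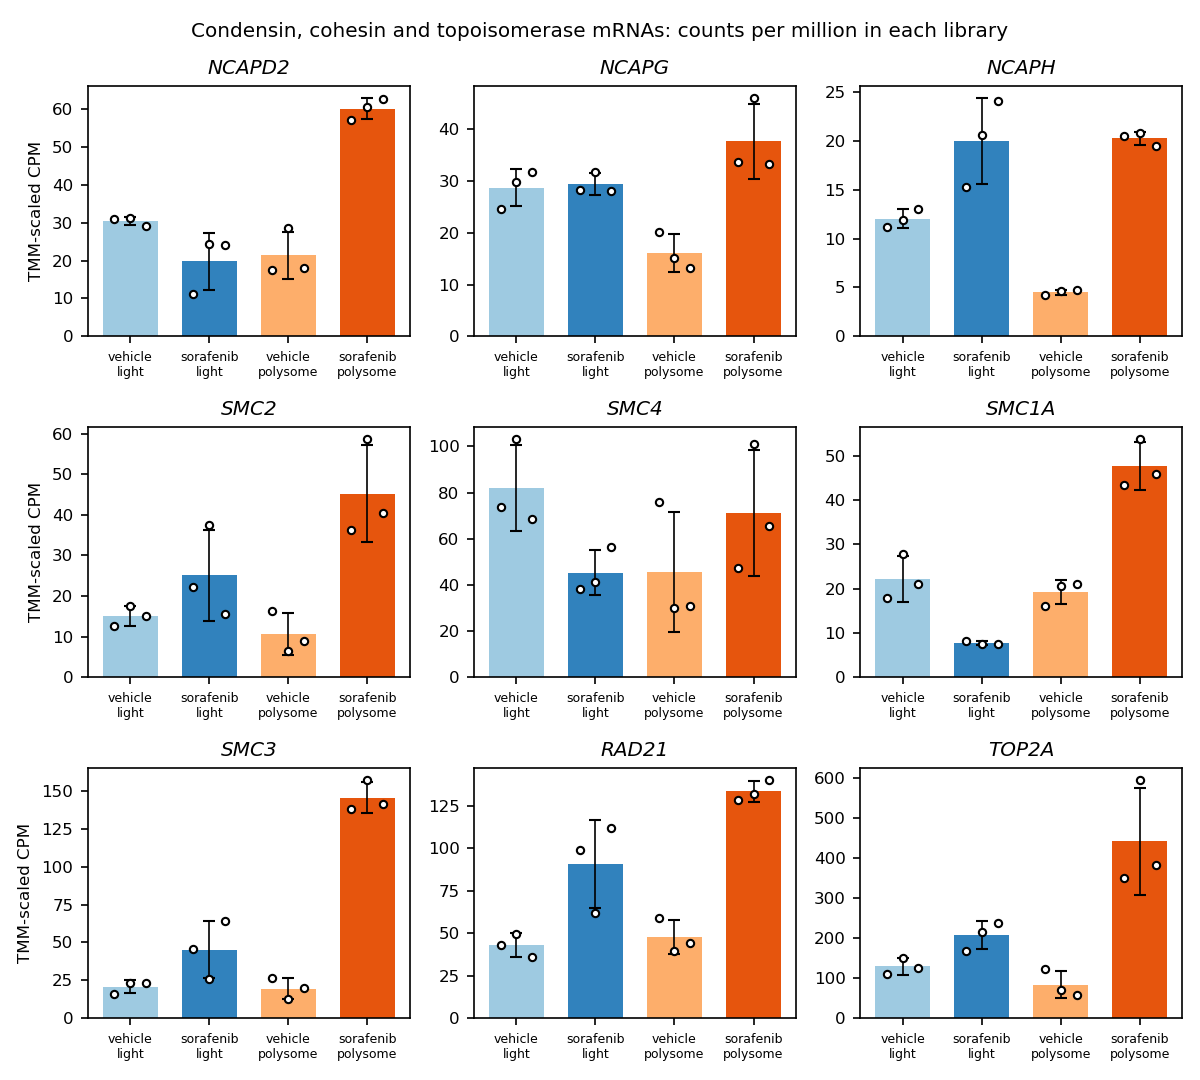
TMM-scaled CPM of 5 condensin genes, 3 cohesin genes and TOP2A in the 12 libraries; bars are group means, whiskers ± SD (n = 3) and points single libraries, each panel with its own axis from 0. Sorafenib polysome libraries lie above all vehicle polysome libraries in every panel but that of SMC4, and SMC1A is lowest in the sorafenib light libraries at 7.47 to 8.22 CPM.

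Another 91 mitosis genes, all of which were tested, were set out by size in the same way. On polysomes 36 of the 91 rose (20.9% of all tested genes), 28 fell (28.8% of all tested genes) and 27 did not pass (median 0.26). Of the 26 that encode small proteins 0 rose and 20 fell (median -0.99), of 48 in the middle class 23 rose and 8 fell (0.55), and of 17 large ones 13 rose and 0 fell (1.03). Their ratio of small-protein to large-protein reads was 10.0, 13.6 and 15.4 on vehicle polysomes and 3.06, 3.15 and 2.70 on sorafenib polysomes. In the light pool it was 5.33, 4.93 and 5.74 under vehicle and 5.46, 3.80 and 5.61 under sorafenib, so there the groups overlapped.

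By complex, the same shares over all tested genes apply to each count, and no count by size was made within a complex. Of 16 further APC/C genes 5 rose and 7 fell on polysomes. The falls included the small subunits ANAPC13 (-1.48 ± 0.20), ANAPC11 (-1.37), ANAPC15 (-1.36) and CDC26 (-1.35), and the rises the scaffold subunits ANAPC1 (1.27) and ANAPC4 (1.15). Of 28 kinetochore and checkpoint genes 5 rose and 13 fell, with the largest rise in MAD1L1 (2.12 ± 0.30) and the largest fall in SKA3 (-1.64 ± 0.27), which is of the middle class. SPC24 (-1.02) and SPC25 (-1.16), the small partners of NDC80 and NUF2, fell on polysomes while NDC80 and NUF2 rose. Of 11 cohesin partners 7 rose and 1 fell, including the loader NIPBL (1.46) and the core subunits STAG1 (1.47) and STAG2 (1.20). Of 18 spindle and cytokinesis genes 12 rose and 1 fell, led by CKAP5 (2.56 ± 0.23), and the fall was that of the small tubulin-binding protein STMN1 (-0.59). Condensin II gave 2 rises among 3 genes, and the entry regulators 5 rises and 6 falls among 15, with FOXM1 at -1.07 and WEE1 at 1.30.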

How the data were processed

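The 12 libraries were analysed from gene counts as the authors deposited them, in whole numbers and without normalization. Reads had been placed on GRCh38.p12, per the submitters' processing notes; aligner, counter, gene models and strand handling were not given in the sources used here. This series calls itself ribosome profiling, while per the labels' protocols the RNA of pooled gradient fractions was made into libraries.

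The main test was edgeR (version 4.0.16, with R 4.3.3 and limma 3.58.1): filterByExpr on the 4 groups, TMM scaling (factors 0.637 to 1.41), 1 quasi-likelihood fit over all 12 libraries without a block, and a Benjamini-Hochberg adjusted p under 0.05 over 14955 genes. DESeq2 1.42.0 was an alternative. SE is the size of the log2 change over the square root of F. The common biological coefficient of variation was 0.245. The fit was tried on simulated data with changes in a few well-counted genes of the sorafenib polysome group alone. Changes in low-count genes or in a large share of genes were not simulated, so that trial does not cover them. Depth limits low-count genes in the sorafenib light group most.

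The 44 genes, the 91 other genes, the classes and the rule for values per library (all small-protein, condensin and cohesin genes, and the largest and smallest changes) were chosen with earlier results of these data known. A few other genes among the 91 were named after their values were seen. Size classes were planned from RefSeq protein lengths; that table was not used here, so they were set by hand. Light and polysome libraries of the same number and treatment come from the same culture, per the labels' titles, and their deviations from group means correlated at 0.18, -0.05 and 0.37 in vehicle and 0.08, 0.05 and 0.04 in sorafenib cultures. If the cultures were not separate, p-values reflect only how far these libraries differ. Libraries of a group differed by more than sampling noise, with a chi-square of 9.97 to 50.7 per degree of freedom.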

Additional observations from a re-analysis of the deposited data

Results flagged for a closer look

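For 26 of the 44 genes the change under sorafenib differed between the 2 fractions, by edgeR's treatment-by-fraction interaction at an adjusted p under 0.05. Over all tested genes 12.8% passed as positive and 10.7% as negative. The value given for each is the log2 change on polysomes minus that in the light fraction. The polysome change was lower for 6 genes, all of them small-protein genes: CENPW (-2.66), PTTG1 (-2.60), BIRC5 (-1.82), UBE2C (-1.71), CKS1B (-1.57) and CKS2 (-1.39). It was higher for SMC1A (2.84), SMC3 (1.66), and all condensin genes, NCAPD2 (2.14), SMC2 (1.50), SMC4 (1.46), NCAPH (1.41) and NCAPG (1.21). Separase ESPL1 (2.70), TOP2A (1.72), INCENP (1.74), CENPF (1.64) and CDC20 (1.17) also differed in that direction. So did the checkpoint genes BUB1 (1.62) and BUB1B (1.29), and the spindle genes KIF4A (1.97), NUSAP1 (1.60), PRC1 (1.54), KIF20A (1.45), KIF2C (1.25) and TPX2 (0.88). The calls for TPX2, CDC20, CKS2 and SMC4 were lost without any of 7, 6, 5 and 5 single libraries, and that for SMC2 without 2. After thinning to the smallest total 12 of the 24 calls that could be tested were lost. With library totals alone 7 of the 26 were lost, and without both shallow libraries 5 of the 26. Groups of 3 libraries are too small for the rule that looks for a library far from its group, so none was sought.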

How the results depend on the processing

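The culture block kept all member calls of its comparisons (26 of 26 for the interaction, where 23 were positive and 6 negative with the block; 16 of 16 and 14 of 14 between fractions), and the block of replicate number, which is only a number across treatments, kept 40 of 40 on polysomes (34 higher, 7 lower) and 15 of 15 in the light pool. DESeq2's test gave 34 higher and 7 lower on polysomes. Without each library in turn, members higher and lower were 28 to 37 and 6 to 7 on polysomes, 10 to 14 and 1 to 3 in the light pool, 16 to 25 and 5 to 6 for the interaction, 6 to 7 and 5 to 14 between fractions in vehicle cells, and 11 to 22 and 0 to 1 in sorafenib cells. Medians of small and large genes were then -1.28 to -0.94 and 1.36 to 1.78 on polysomes, 0.50 to 0.74 and -0.29 to 0.00334 in the light pool, and -1.66 to -1.29 and 1.41 to 1.98 for the interaction. The 14 lower calls came without vehicle polysome library 1, the 5 without vehicle light library 2, and the 22 higher calls and the large light median of 0.00334 without sorafenib light library 3. In the light pool 1 was lower without sorafenib light library 1, and 3 were lower without sorafenib light library 2 or 3 or vehicle polysome library 1.

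With totals alone, members higher were 25 in the light pool, 13 for the interaction, 17 (1 lower) between fractions in vehicle and 28 (0 lower) in sorafenib cells. The small and large medians were 1.03 and 0.21 in the light pool and -1.89 and 1.26 for the interaction, and BUB1B (0.12), AURKB (0.19) and NCAPG (0.055) changed sign between fractions in vehicle cells. Without a filter on low counts, lower calls were 2 on polysomes, 2 for the interaction and 5 and 0 between fractions (vehicle, sorafenib), 27 were higher in sorafenib cells, and UBE2C turned to 0.048 there. The medians were then -0.80 and 1.91 on polysomes, 0.39 (small) in the light pool, and -1.01 and 2.08 for the interaction. After thinning to the smallest total, 1 was lower in the light pool, 7 had a positive interaction, 4 were lower between fractions in vehicle cells and 6 higher in sorafenib cells. The medians were -1.04 (small, polysomes), 0.17 (large, light) and -1.72 (small, interaction), and CDCA8 turned to -0.16 on polysomes. Without both shallow libraries, medians were -0.95 and 1.77 on polysomes, 0.83 and 0.056 in the light pool and -1.40 (small) for the interaction, with 0 lower in sorafenib cells. TMM within the fraction gave -0.999 and 1.73 on polysomes and 0.69 (small) in the light pool, and vehicle polysome library 1 as TMM reference gave 0.65 (small) there and 0 lower in sorafenib cells.

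Size limits mattered too. Stricter limits gave 1.30 (large) on polysomes and 0.41 and -0.56 in the light pool. Splitting all genes once into 15 smaller and 29 larger gave 0.38 (smaller) on polysomes, 0.43 and 0.41 in the light pool and -0.58 (smaller) for the interaction, since the smaller side then held cyclins and kinases that rose. The median polysome change over all tested genes ranged from -0.34 to 0.02 over settings, and the share of higher among its calls was 42.1%, 54.9% with TMM within the fraction and 70.1% without a filter. For light calls it was 39.8%, and 73.5% with totals alone; between fractions in vehicle cells 50.8% and 89.3%, in sorafenib cells 51.9% and 85.9%, and for the interaction 54.5% and 33.6%. The cause of the other changes was not tested.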
